A study of Mus musculus with 4 samples.

Results

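Chromosomes 8 and 10 of the mouse were followed along their length in 4 liver tumours by array comparative genomic hybridization. Every probe that was not a control and had a position on either chromosome (build mm9) was taken, which gave 16635 of the 169093 placed probes, 8037 on chromosome 8 and 8598 on chromosome 10. Of these, 16631 gave a value in all 4 tumours. Both chromosomes were chosen because their means were low in 1 tumour, so their means, bins and segments are described here and support nothing by themselves.

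The tumours came from untreated C57BL/6J mice with a loss of Trp53 restricted to the liver, labelled Trp53-/- and male, with 1 tumour each from 4 animals. Each tumour's DNA carried Cy5 and was hybridized on its own array against Cy3-labelled spleen DNA, pooled from 3 littermates matched for sex and labelled with the same genotype. The sample labels call the reference tissue spleen and are followed here, although the protocol for dye labelling calls it liver. The age of the mice and the driver of the deletion are not given in the sources used here. A bulk tumour also holds cells that are not tumour cells, and a change in fewer cells cannot be told apart from a smaller change in all of them.

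In this assay the tumour and the reference compete for the same oligonucleotides, so a probe's dye ratio follows the relative number of copies of its target. A log2 ratio of 0 stands for the autosomal median of the array, and negative values for less tumour DNA than that. Dye ratios can also follow the base composition of the DNA around a probe, a broad undulation known as the GC wave. GC content, gene density and signal brightness go together along mouse chromosomes, with gene-rich stretches being GC-rich.

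The arrays differed in quality and in 1 label. The spread between neighbouring autosomal probes (SD, log2) was 0.12, 0.37, 0.15 and 0.15 in tumours 1 to 4, so tumour 2 was the noisiest, and the part of that noise in the values below was not tested. At least 98.9% of the spots on chromosomes 8 and 10 were well above background in either channel, and none was saturated. The arrays of tumours 1 and 2 shared a slide, as did those of tumours 3 and 4. The arrays of tumours 1 and 4 went against the male label of both channels, with mean X-chromosome log2 ratios of -0.82 and 0.84 and Y-chromosome ratios of 2.22 and -2.35. Values without those 2 arrays are therefore given below.

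The probes that show the range of base composition on both chromosomes are printed here, 5′ to 3′, with G and C in capitals, because the profile of tumour 2 ran with that composition. On chromosome 8 the probe of lowest GC, in the gene name BC140461 at chr8:58646113-58646172, holds 15% G and C, and the probe of highest GC, with no gene name at chr8:4800948-4800992, holds 62.2%. On chromosome 10 the neighbours with the largest difference in GC inside 1 gene name lie in AK080684, at chr10:101182428-101182487 (16.7%) and at chr10:101191154-101191213 (38.3%).
BC140461: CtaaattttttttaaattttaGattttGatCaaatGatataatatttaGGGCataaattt
chr8 highest GC: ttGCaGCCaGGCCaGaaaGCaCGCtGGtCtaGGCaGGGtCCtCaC
AK080684 first: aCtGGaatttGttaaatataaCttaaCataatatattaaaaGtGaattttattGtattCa
AK080684 second: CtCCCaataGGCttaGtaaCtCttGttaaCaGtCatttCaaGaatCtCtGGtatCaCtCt
In tumour 2 the probe of lowest GC on chromosome 8 read -0.18 and that of highest GC 0.80. The AK080684 pair read -1.37 and -0.052 in tumour 2, against -0.19 and -0.085 in tumour 1, 0.55 and -0.20 in tumour 3, and 0.037 and 0.19 in tumour 4. These are single spots, chosen by composition, and a single spot of tumour 2 carries the large noise given above.

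The mean log2 ratio of chromosome 8 was -0.0079, -0.088, -0.017 and -0.0040 in tumours 1 to 4, and these averaged -0.029 ± 0.040 (SD, n = 4). The corresponding values of chromosome 10 were -0.0022, -0.093, -0.041 and -0.0010, which averaged -0.034 ± 0.043 (SD, n = 4). Tumour 2 was thus the lowest on both, and tumours 1 and 4 lay close to 0 on both. In linear terms the ratio in tumour 2 was 0.941 on chromosome 8 and 0.937 on chromosome 10. Both averages were smaller than the SD between tumours. Without tumour 2 they came to -0.0096 and -0.015. With only tumours 2 and 3, which leaves out the arrays that went against the sex label, they were -0.053 and -0.067. Within slides, the chromosome 8 average was -0.048 for tumours 1 and 2 and -0.011 for tumours 3 and 4, and the chromosome 10 average was -0.048 and -0.021.

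Among the 19 autosomes of tumour 2, chromosome 10 was the lowest and chromosome 8 the next, and the lowest of the other 17 stood at -0.049. Whole-chromosome shifts elsewhere give a scale for these values. Chromosome 15, which carries Myc, averaged 0.21, 0.29, 0.14 and 0.24 in tumours 1 to 4. Chromosome 9 averaged -0.17, -0.0031, -0.12 and -0.20, and chromosome 12 averaged -0.17, -0.034, -0.11 and -0.18. The means of chromosomes 8 and 10 in tumour 2 were smaller in size than the chromosome 9 and 12 means of the other 3 tumours. Odd-numbered and even-numbered probes gave -0.094 and -0.083 on chromosome 8 and -0.082 and -0.10 on chromosome 10 in tumour 2, so neither mean rested on a few probes.

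**Figure D1:**
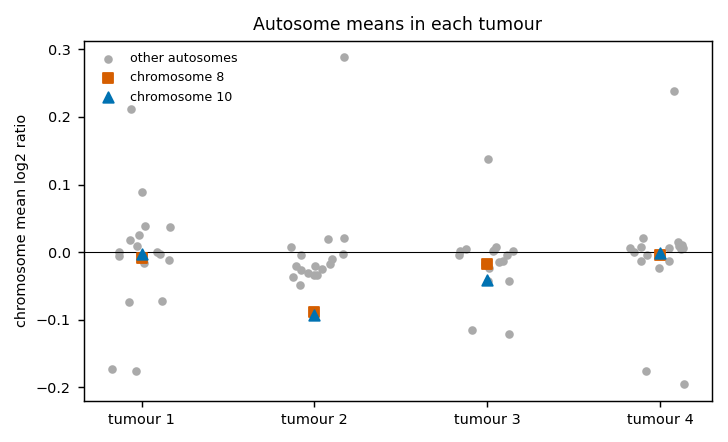
Mean log2 ratio of each autosome (vertical axis) in tumours 1 to 4, with 1 point per autosome and with sideways scatter that carries no meaning. Chromosomes 8 (squares) and 10 (triangles) are the lowest points of tumour 2, at -0.088 and -0.093, and lie at or near 0 in tumours 1 and 4.

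In bins of 5 Mb the 2 chromosomes fell into 27 and 26 bins. On chromosome 8, the bins of tumour 2 ran from -0.20 to 0.023 with a median of -0.095, and 26 of 27 were below 0. Those of tumour 1 ran from -0.030 to 0.0083, those of tumour 3 from -0.040 to 0.0061 and those of tumour 4 from -0.042 to 0.058. The range in tumour 2 was therefore wider than in any other tumour on this chromosome. Its SD over bins was 0.063, against 0.011, 0.013 and 0.027 in tumours 1, 3 and 4, while odd and even probes of a bin put the error of a bin mean of tumour 2 at 0.028. The lowest bin of tumour 2, from 55 to 60 Mb, held 4.44 gene names per Mb and a mean probe GC of 35.4%, the lowest of the chromosome. Its highest bin, from 120 to 125 Mb, had the highest mean GC, 37.4%.

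On chromosome 10, 24 of 26 bins of tumour 2 were below 0, from -0.21 to 0.059 with a median of -0.094. The lowest lay at 30 to 35 Mb, around Nkain2, and again had the lowest mean GC of the chromosome, 35.8%. The only bins above 0 were the neighbours at 75 to 80 Mb (0.059) and 80 to 85 Mb (0.051), the most GC-rich bins of the chromosome at 37.4% each. The former also had the most gene names, 25.5 per Mb. In tumour 3, by contrast, all 26 bins were below 0 and lay close together, from -0.068 to -0.018, with an SD of 0.012 against a bin error of 0.011. Odd and even probes correlated with r = 0.65 over the 26 bins of tumour 2 and r = 0.14 in tumour 3, both as a description of 1 array. The bins of tumour 3 thus differed from each other by about as much as their measurement error, around a level of -0.041. Chromosomes 13 and 14 had means as low in that tumour, at -0.043 and -0.042.

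Over all 500 autosomal bins, 48.4%, 66.6%, 67.6% and 47.2% were below 0 in tumours 1 to 4. For chromosomes 8 and 10 together the counts were 37, 50, 47 and 27 of 53. At or under -0.1 lay 23 of the 53 bins in tumour 2, where 13.4% of all bins did, and none in tumours 1, 3 and 4, where 11.2%, 8.6% and 10% did. No bin of the chromosomes reached 0.1, where 6%, 7.6%, 4.2% and 4.6% of all bins did in tumours 1 to 4. Because the chromosomes were chosen for their low means in tumour 2, nothing is read from the tumour 2 counts.

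**Figure D2:**
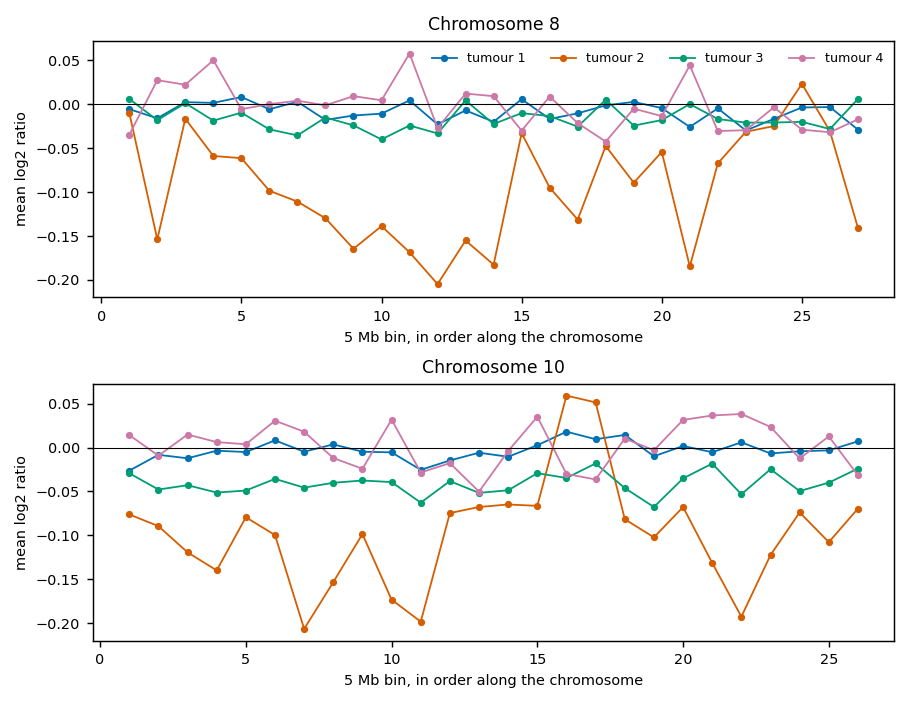
Mean log2 ratio (vertical axis) of each 5 Mb bin in order along chromosome 8 (27 bins, top) and chromosome 10 (26 bins, bottom), with 1 line per tumour. Tumour 2 runs between -0.20 and 0.023 on chromosome 8 and between -0.21 and 0.059 on chromosome 10, while tumour 3 stays between -0.068 and -0.018 along the whole of chromosome 10.

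The bins of tumour 2 were in general lower where GC was lower. Across the bins, the mean log2 ratio of tumour 2 correlated with mean probe GC at r = 0.86 (rho = 0.88, n = 27) on chromosome 8 and r = 0.90 (rho = 0.68, n = 26) on chromosome 10. With mean brightness, the log2 signal averaged over both dyes, r was 0.78 and 0.88. With gene names per Mb it was 0.71 on both. Brightness includes the tumour signal that also sets the ratio, so part of its r can arise by construction. Some bins went against the relation with GC. The bin from 130 Mb on chromosome 8 read -0.14 at 36.6% GC, and the bin from 15 Mb on chromosome 10 read -0.14 at 36.5%, both above their chromosome's median bin GC of 36.5% and 36.4%. These bins share 1 array, and the properties run together (GC against gene names, r = 0.73 and 0.65), so the values describe that array and carry no p. The other tumours did not share the pattern to that degree. Against GC, r was 0.32 and 0.43 in tumour 1, 0.31 and 0.30 in tumour 3, and turned to -0.47 and -0.36 in tumour 4. Tumour 4 ran most closely with gene names per Mb, at r = -0.68 and -0.66, so its gene-poor bins were the higher ones.

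The same tilt was present on the other chromosomes of tumour 2. All of its other 17 autosomes had a positive r with GC, from 0.47 to 0.89 with a median of 0.80. Its bin values moved by 0.13 (chromosome 8) and 0.15 (chromosome 10) on the log2 scale per percentage point of GC, against 0.12 over the 376 bins of the 14 autosomes other than 8, 9, 10, 12 and 15. The SD over bins of chromosomes 8 and 10 ranked 12th and 11th from the lowest among the 19 autosomes of tumour 2. The tilt with GC is thus a property of the whole array of tumour 2 and was not tested as a difference of chromosomes 8 and 10.

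The bins were also set against the other autosomes at equal GC, as a description of chromosomes chosen for their low level in tumour 2. Against the straight line of log2 ratio on GC through those 376 bins, all 27 bins of chromosome 8 and all 26 of chromosome 10 lay below the line in tumour 2. The mean distance was -0.088 on chromosome 8, with an SD over bins of 0.033, and -0.075 on chromosome 10, with an SD of 0.030. The means of the 14 autosomes that set the line lay between -0.017 and 0.027 of it. Against the corresponding line on brightness the mean distances were smaller, -0.048 (24 of 27 bins below) and -0.049 (25 of 26), and against the line on gene names per Mb they were -0.073 (25 of 27) and -0.073 (25 of 26). As brightness includes the tumour signal, its line can take out part of a low tumour signal by construction. The part of base composition, brightness and gene density in the low level was not tested. In tumour 3 all 26 bins of chromosome 10 lay below that tumour's line, by -0.032 ± 0.012 (SD over bins), but chromosome 13 lay as low, at -0.035. By this distance chromosome 10 ranked 5th from the lowest of the 19 autosomes of tumour 3.

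**Figure D3:**
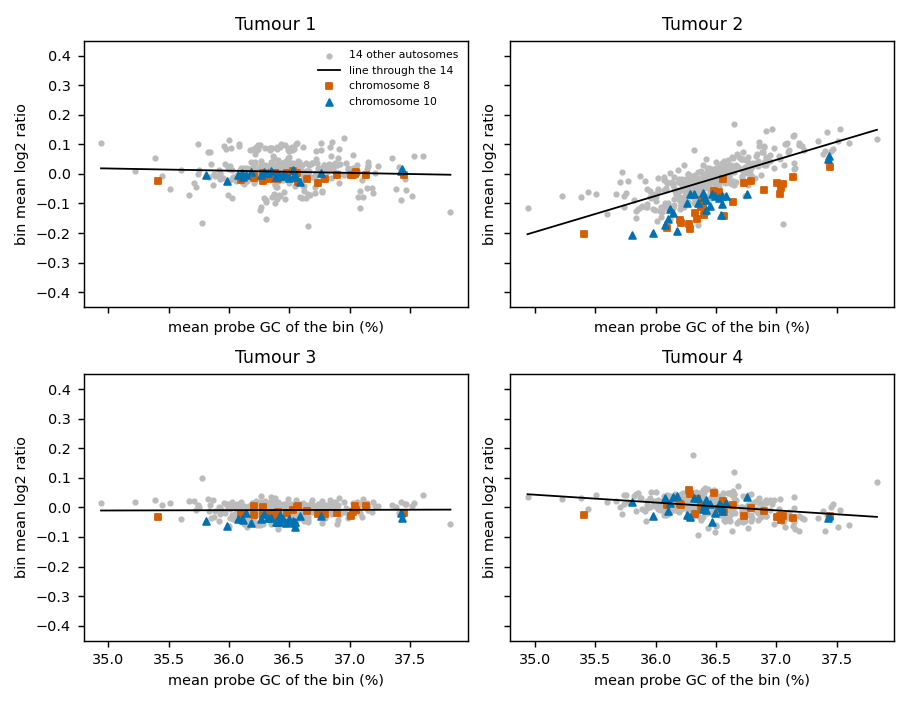
Mean log2 ratio of each 5 Mb bin (vertical axis) against the mean GC of its probes in percent (horizontal axis), in 1 panel per tumour, with chromosome 8 as squares, chromosome 10 as triangles, and the 376 bins of 14 other autosomes and their straight line in grey and black. In tumour 2 all 53 bins of chromosomes 8 and 10 lie below a line that rises by 0.12 per percentage point of GC.

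To describe how even the distance of tumour 2 was, all autosomal probes were ranked by a property and divided at equal steps of rank into 5 classes, and the mean of the other autosomes in a class was subtracted from the chromosome's mean. For brightness the differences on chromosome 8 were -0.084, -0.068, -0.067, -0.067 and -0.061 from the dimmest class to the brightest, so the middle classes were nearly equal. On chromosome 10 they ran from -0.079 to -0.066 with no order from dim to bright. For the GC of the surrounding bin they ran from -0.12 to -0.072 and from -0.11 to -0.042, with no order from the lowest to the highest class. All 5 classes were below 0 in each case. For the GC of the probe itself they ran from -0.15 to -0.079 and from -0.14 to -0.028. Many probes share the same GC and were split between classes in chromosome order, so class 4 held only 107 and 103 probes. The classes of probe GC therefore held different mixes of the other autosomes, and evenness cannot be read from these differences. Probes with a gene name stood at -0.086 and -0.091 relative to named probes elsewhere, and those without one at -0.084 and -0.088. Probes with and without a gene name thus stood at nearly the same distance.

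In tumour 3 the difference of chromosome 10 from the other autosomes was also below 0 in 5 of 5 classes, from -0.031 to -0.018 for brightness and from -0.036 to -0.017 for the GC of the bin. Chromosome 8 of tumour 3 ran from -0.0060 to 0.00087 for brightness. In tumours 1 and 4 the brightness classes lay between -0.010 and 0.016 on both chromosomes.

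These classes are set against all other autosomes, which include the shifted chromosomes 9, 12 and 15. Against the 14 autosomes without them, the brightness classes of tumour 2 ran from -0.074 to -0.045 on chromosome 8 and from -0.068 to -0.053 on chromosome 10. Those of tumour 3 then ran from -0.014 to -0.0031 on chromosome 8, all below 0, and from -0.034 to -0.027 on chromosome 10. Those of tumour 1 were also all below 0, from -0.018 to -0.0083 and from -0.011 to -0.0050, and those of tumour 4 ran from -0.012 to 0.0023 and from -0.0093 to 0.00055. The side of 0 on which tumour 1 on both chromosomes and tumour 3 on chromosome 8 lay thus depended on the autosomes they were set against. Tumour 4 on chromosome 10 also moved down, since its brightness classes against all other autosomes all lay above 0, from 0.00082 to 0.012.

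The level was then read in each dye, as the mean log2 signal of the chromosome minus that of all autosomes. On chromosome 8 the tumour channel stood at -0.011, -0.085, 0.0020 and -0.0052 on the arrays of tumours 1 to 4, and the reference channel at -0.0075, -0.0086, 0.0031 and -0.0077. On chromosome 10 the tumour channel stood at -0.027, -0.099, -0.038 and -0.0085, and the reference channel at -0.029, -0.018, -0.013 and -0.014. The low value of tumour 2 therefore lay in its tumour channel, which differed from the mean of the other 3 arrays by -0.080 on chromosome 8 and -0.075 on chromosome 10. Its reference channel differed from the other arrays by -0.0046 and 0.00062. The slope on GC, unlike the level, stood apart in both channels of tumour 2. It was 0.25 per percentage point in the tumour channel of tumour 2 on both chromosomes and 0.12 and 0.10 in its reference channel. The other 3 arrays had 0.14 to 0.19 in either channel. The tumour channel of tumour 2 was thus steeper than theirs and its reference channel less steep.

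**Figure D4:**
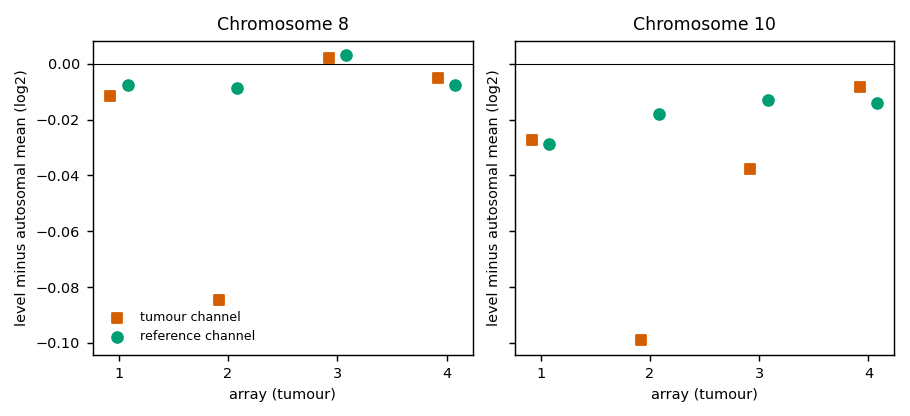
Mean log2 signal of chromosome 8 (left) and chromosome 10 (right) minus the autosomal mean (vertical axis) on the array of each tumour, with the tumour channel as squares and the reference channel as circles. The tumour channel of tumour 2, at -0.085 and -0.099, is the lowest point of both panels, and its reference channel, at -0.0086 and -0.018, is not apart from those of the other arrays.

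Segmentation, which divides each chromosome at changes of level, called few stretches. A segment was called at 5 or more probes and a mean of at least 0.2 or at most -0.2. Over the autosomes, called gains held 4.24%, 4.45%, 0.0962% and 3.27% of the probes of tumours 1 to 4 and called losses 0.114%, 0.215%, 0.0189% and 4.45%. On chromosomes 8 and 10 there were 2 called gains and no called loss. In tumour 3 the whole of chromosome 10 formed 1 segment, from chr10:3002742-129959362, at -0.041. In tumour 2 the lowest long segments stayed short of a call, at -0.17 over chr8:38576781-71418526 and at -0.13 over chr10:3002742-57926669.

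The called gain of tumour 2 lay at chr10:78995710-81123751, spanned 2.13 Mb and 245 probes, and had a mean of 0.22. The same probes averaged 0.027, 0.012 and -0.075 in tumours 1, 3 and 4. It held 107 gene names at a mean probe GC of 39.2%, above the 36.4% of the whole chromosome. Removing the trend with probe GC, the trend with regional GC or the trend with brightness ended the call, as did centring on the mode, a penalty factor of 6 and a call threshold of 0.3. Stk11, the kinase LKB1 that activates AMPK, lies in it and read 0.22, 0.17, 0.061 and -0.15 in tumours 1 to 4 from 2 probes. Map2k2, the MAP kinase kinase MEK2, read 0.036, 0.30, -0.025 and -0.0045, also from 2 probes. Stk11 was thus highest in tumour 1, which had no call there, and the averages of Stk11 and Map2k2 turned negative once the brightness trend was removed.

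The called gain of tumour 4 lay at chr8:102108921-102253497, with 11 probes and a mean of 0.41, in the gene name AK042807. Those probes averaged -0.21, -0.082 and 0.045 in tumours 1, 2 and 3, so the tumours differed in direction. This call ended with the normexp background correction, with the brightness trend removed and at a penalty factor of 6. Tumour 4 also had a segment of 160 probes at chr10:60809188-62891335 with a mean of -0.14, which holds Hk1, the hexokinase of most tissues outside the adult liver, and Col13a1. The other tumours read -0.0029, -0.10 and -0.069 there.

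Some single probes formed segments of their own, 11 in all, and are given as spots chosen after their values were seen. The largest lay at chr8:53355226-53355285, outside any gene name, and read -0.074, 0.11, -3.56 and 5.54 in tumours 1 to 4. Its neighbours averaged 0.024, -0.46, -0.0098 and -0.074. Its sequence is shown because 2 tumours on 1 slide differ in sign at this spot.
chr8 single probe: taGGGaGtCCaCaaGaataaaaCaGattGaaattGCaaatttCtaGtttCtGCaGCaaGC
In Ddit3, which encodes the stress-response factor CHOP, the probe at chr10:126727842-126727899 read -0.34, -1.33, 0.48 and -1.24, with neighbours between -0.053 and 0.079. Such spots were left in the chromosome means, and the median over probes, which single spots hardly move, gave -0.074 and -0.081 in tumour 2.

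Bins and genes were tested against 0 over the 4 tumours with limma, a linear model with a variance shared across features, and Benjamini-Hochberg adjustment over all autosomal features at 0.05. The labels describe the same kind of reference pool for all 4 arrays. Whether they shared the same pool is not settled, as the arrays of tumours 1 and 4 had opposite X and Y ratios. Where a pool was shared, the test leaves out its spread. None of the 53 bins was called lower, where 6.6% of the 500 autosomal bins were, and none was called higher, where 4.2% were. At an unadjusted p under 0.05 were 2 of the 53 bins and 14.4% of all. None of the 1363 genes with at least 2 probes was called lower or higher, and 0% of the 13389 autosomal genes were. At an unadjusted p under 0.05 were 177 of the 1363 genes and 19% of all. With the slide as a random block, whose estimated correlation between arrays of a slide was -0.34, 35 genes of the chromosomes were called lower and 11 higher, and without tumour 2 the counts were 13 and 4.

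Genes were described in 6 lists of known chromosome 8 and 10 genes. Of 141 different genes, 125 were matched to an array name, 123 lay on the listed chromosome and 105 of these had at least 2 probes. No list had a member called lower or higher. Over all 696 genes of chromosome 8, 55.2%, 60.8%, 55.6% and 59.6% were below 0 in tumours 1 to 4, and over all 667 of chromosome 10, 48.0%, 64.8%, 70.9% and 54.7%. Nothing is called particular to a list from the counts that follow. Among the tumour suppressor and genome maintenance genes of chromosome 8, 13, 18, 15 and 11 of 21 were below 0 in tumours 1 to 4. Their median in tumour 2 was -0.16, against -0.063 over all genes of the chromosome. The growth list of chromosome 8 was also lower than that, at -0.083, and its liver list was higher, at -0.039. On chromosome 10 the liver, tumour suppressor and growth lists stood at -0.046, -0.0041 and -0.00034. All of these were higher than the -0.078 over all genes of chromosome 10.

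Ing2, a reader of methylated histone H3, read -0.19, -0.98, -0.15 and -0.60 in tumours 1 to 4 from 2 probes. Smarca5, the ATPase of ISWI chromatin remodellers, read -0.15, -0.55, -0.14 and -0.20 from 6 probes. Rbl2, the pocket protein p130 that restrains E2F factors, read -0.051, -0.53, -0.11 and -0.098 from 6 probes. All 4 tumours were below 0 at these genes and tumour 2 was lowest, at adjusted p of 0.14, 0.14 and 0.27 in the limma fit. Their probes held 36.7%, 33.3% and 34.7% G and C. Cyld, a deubiquitinase that restrains NF-kappaB signalling, read 0.035, -0.45, -0.062 and -0.13. Cdh13, the membrane-anchored T-cadherin, had 84 probes and read 0.0011, -0.059, -0.041 and 0.031, and it was the member with the most probes.

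The liver metabolism list of chromosome 8 had 5, 9, 9 and 12 of 16 members below 0 in tumours 1 to 4. Agt, the angiotensinogen made by hepatocytes, read 0.17, 0.41, 0.046 and 0.24 from 2 probes, above 0 in 4 of 4 tumours (limma adjusted p = 0.15). Cyp4v3, a fatty acid hydroxylase, read 0.0080, -0.64, -0.060 and -0.084. Fgl1, a protein secreted by hepatocytes, read 0.020, -0.40, -0.084 and -0.13. The low values of Cyp4v3 and Fgl1 were those of tumour 2, and the other 3 tumours lay closer to 0 at both. Tat, which degrades tyrosine, read 0.093, -0.30, -0.099 and -0.16. Insr, the insulin receptor, had 13 probes and read -0.049, -0.17, -0.048 and -0.13.

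Among growth and cell cycle genes of chromosome 8, 7, 12, 10 and 11 of 18 were below 0 in tumours 1 to 4. Jak3, a cytokine receptor kinase, read -0.094, 0.56, 0.090 and 0.16, with a probe GC of 41.2%. Orc6, a subunit of the origin recognition complex, read 0.23, -0.59, -0.068 and -0.20, with a probe GC of 32.5%. Tumour 2 was the highest at the GC-rich gene and the lowest at the GC-poor one, and the average of Orc6 changed sign once the brightness trend was removed. E2f4 read -0.027, -0.094, -0.069 and -0.24, Itgb1 -0.10, -0.16, -0.0011 and -0.034, and Nr3c2, the mineralocorticoid receptor, 0.032, -0.029, -0.0095 and 0.065.

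On chromosome 10, 6, 8, 8 and 8 of 13 liver metabolism genes were below 0 in tumours 1 to 4. Sirt1, a NAD-dependent deacetylase, read -0.037, -0.48, -0.17 and -0.21 from 3 probes of 33.9% GC. Gstt1, a glutathione transferase, read -0.0088, 0.50, 0.22 and 0.0047, highest in tumour 2. Hk1 read 0.042, -0.18, -0.089 and -0.15. Enpp1, which makes pyrophosphate, read -0.0086, -0.15, -0.047 and -0.12 from 9 probes, below 0 in all 4 tumours.

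Among the tumour suppressor and stress response genes of chromosome 10, 3, 8, 7 and 9 of 16 were below 0 in tumours 1 to 4. Apc2, a relative of the Wnt pathway inhibitor Apc, read 0.037, 0.61, 0.077 and 0.026 from 4 probes of 47.3% GC, and its average turned negative with GC and brightness trends removed. Lats1, a kinase of the Hippo pathway, read -0.022, -0.46, -0.073 and -0.17 and was low in tumour 2 at a probe GC of 37.8%. Apaf1, which assembles the apoptosome, read 0.0041, -0.44, -0.13 and -0.099. Tdg, a thymine DNA glycosylase, read 0.081, 0.28, 0.069 and 0.14, above 0 in every tumour, but its average turned to -0.022 with the normexp background correction. Ptprk, with 50 probes, read 0.033, -0.11, -0.0071 and 0.045. Ptprk and Cdh13, with 50 and 84 probes, read closer to the chromosome means of tumour 2 than Apc2, Lats1, Ing2 or Smarca5 did. The latter genes were named for their large averages, so this difference is built into the choice and nothing is read from it.

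Among growth and cell cycle genes of chromosome 10, 9, 11, 14 and 16 of 22 were below 0 in tumours 1 to 4. Mdm2, the ubiquitin ligase that degrades p53, read -0.084, -0.79, -0.28 and -0.19 from 2 probes at chr10:117127827-117142299, below 0 in 4 of 4 tumours (limma adjusted p = 0.19). Bcr read 0.0051, 0.52, -0.0039 and 0.072. Yeats4, a reader of histone acylation, read 0.093, -0.31, -0.081 and -0.26, at a probe GC of 37.6%. Mdm2 and Yeats4 lie within 1 bin, whose mean in tumour 2 was -0.074. Dot1l, the histone H3 methyltransferase, read -0.27, -0.057, 0.064 and -0.22. Esr1, the oestrogen receptor alpha, had 34 probes and read -0.024, -0.077, -0.054 and -0.00084.

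The genes with the most probes in the extreme bins followed their bin in some cases and not in others. Nkain2, a partner of the sodium pump, had 111 probes in the lowest chromosome 10 bin of tumour 2 and read -0.011, -0.22, -0.036 and 0.027 in tumours 1 to 4. Ppfia2, a presynaptic scaffold protein, with 53 probes of 36.0% GC, read -4.3e-05, -0.32, -0.035 and 0.012. Ctnna3, an alpha-catenin, with 156 probes read -0.0068, -0.068, -0.043 and 0.024. All 3 genes were lowest in tumour 2 and lay closer to 0 in tumours 1, 3 and 4. Glra3, a glycine receptor subunit, in the lowest chromosome 8 bin of tumour 2, read -0.021, -0.022, 0.058 and -0.021, so that gene did not share the low level of its bin. Pcbp3, an RNA-binding protein gene in the highest chromosome 10 bin of tumour 2, read 0.012, -0.11, -0.091 and -0.00085, below 0 in tumour 2 where its bin was above. Cdh13 likewise was below 0 in the highest chromosome 8 bin of tumour 2.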

How the data were processed

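Per the file headers, the deposited files hold Agilent Feature Extraction output (version 12.0.1.1; the submitters' processing notes give 12.0.0) with positions on mm9. The deposited intensities of both dyes had been corrected for background and dye bias within each array, per the file headers. The authors' log10 ratio per spot served as an alternative, and on every array at least 99.7% of the spots had one within 0.001 of the log10 ratio of the intensities.

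Log2 of tumour over reference processed signal was computed, flagged spots were left out, the 1000 probes spotted more than once were averaged, and the autosomal median of the array was subtracted. Bins needed 50 probes and genes 2. Bins and genes were tested with limma 3.58.1 (R 4.3.3, statmod 1.5.0), and segments were found by penalised least squares (penalty factor 3). Both were tested on simulated data. Python 3.11.15, numpy 2.4.6, pandas 2.3.3 and numba 0.67.0 were used.

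Named genes were the 4 of each list with the largest absolute averages, the member with most probes, Stk11, Map2k2 and the genes with most probes in extreme bins. The chromosomes and lists were chosen with earlier results of these data known. The number of arrays limits the precision.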

Additional observations from a re-analysis of the deposited data

Results flagged for a closer look

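Values of the 4 tumours were screened for a tumour far from the other 3, relative to the range. Of 73 sets of 4 values, many of which share probes, 12 had such a tumour, and in 10 it was tumour 2. Chance flags about 1 in 20 sets, but the chromosomes were chosen because tumour 2 was low there, so nothing is read from the number of sets. The mean of chromosome 8 in tumour 2 (-0.088) and its tumour channel there (-0.085) stood apart, as did the 55 to 60 Mb bin of chromosome 8 (-0.20). The chromosome 8 reference channel of tumour 3 (0.0031) stood above the other 3 arrays. Among genes, tumour 2 stood apart at Cyp4v3 (-0.64), Smarca5 (-0.55), Rbl2 (-0.53), Phkb (-0.097) and Ppfia2 (-0.32) on the low side and at Apc2 (0.61) and Bcr (0.52) on the high side. Glra3 stood apart in tumour 3 (0.058), where the other 3 tumours lay between -0.022 and -0.021.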

How the results depend on the processing

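The averages of chromosomes 8 and 10 over the tumours stayed below 0 under every alternative run and moved by less than their SD over tumours. That SD was larger than either average, so an average near 0 would also have met this margin. In single tumours the sign of chromosome 8 could change. It read 0.0029 in tumour 3 with the median over probes and 0.0012 in tumour 4 with the brightness trend removed. Leaving out 1 tumour gave -0.038 to -0.0096 for chromosome 8 and -0.045 to -0.015 for chromosome 10. In tumour 2 the means ranged from -0.14 (centred on the mode) to -0.053 (brightness trend removed) on chromosome 8 and from -0.15 to -0.056 on chromosome 10. Removing the brightness trend can also take out part of the tumour signal, which brightness includes. The correlation of tumour 2 with GC on chromosome 8 fell from 0.86 to 0.12 when the trend with regional GC was removed, an alternative chosen after seeing the data that takes out that relation by construction. Bins called lower numbered 1 with the normexp background correction and 3 when centred on the mode. Genes called lower and higher numbered 54 and 28 with normexp and 35 and 11 with the slide as a random block, and 2 genes were called lower with GC and brightness trends removed. Leaving out 1 tumour gave 0 to 13 genes lower and 0 to 4 higher. The shares over all autosomal bins and genes under these alternatives are not given here, so nothing is read from these counts. Called gains numbered 0 at penalty factor 6 and with the brightness trend, or both trends, removed. They numbered 1 at call threshold 0.3, with normexp, centred on the mode, and with the probe GC or regional GC trend removed. Called losses numbered 4 at penalty factor 1.5, 3 at threshold 0.1, 1 with normexp and 1 centred on the mode. The causes were not tested. Of 44 named genes, 17 had an average that changed sign under at least 1 alternative. No paired analysis was possible because the tumours form 1 group and each was measured once. Tumour 2's noise, 0.37 between neighbours, limits values that rest on few probes.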
